A study of Mus musculus with 11 samples.

Results

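The genes that make, sense and clear extracellular adenosine were followed in lymph node CD4+ cells. They are 7 genes chosen by symbol, Entpd1, Nt5e, Adora2a, Slc29a1, Ada, Dpp4 and Adk, and all 7 were found among the 55471 genes of the count table. The GLC group has 6 libraries from C57BL/6 mice of the genotype Pggt1bfl/flLys-Cre, in which Pggt1b, a subunit of a protein prenylation enzyme, is deleted in macrophages. The WT group has 5 libraries from C57BL/6 mice. Cells came from inguinal and axillary nodes, were enriched by bead removal of other cells, and were kept for 2 h with concanavalin A, a T cell activating lectin, at 1.25 µg/ml in both groups. The Lys-Cre driver is active in myeloid cells, so the CD4+ cells themselves are not the cells meant to lose the gene. Whether WT mice carried the driver or the floxed allele, and how old the mice were, is not stated in the labels. GLC replicate 78 came from mRNA pooled from 2 mice, and nothing states whether the other libraries are 1 mouse each, so p-values measure the spread between these libraries.

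ATP released by stressed or activated cells acts on P2 receptors. The surface enzymes CD39 (Entpd1) and CD73 (Nt5e) degrade it in sequence, the first to AMP and the second to adenosine. Adenosine raises cyclic AMP in T cells through the receptor encoded by Adora2a, which restrains activation, and regulatory T cells of mice carry both surface enzymes. The signal ends when adenosine enters the cell through transporters such as Slc29a1 and is deaminated by Ada or phosphorylated to AMP by Adk. Dpp4 is the surface peptidase CD26, which in humans also holds adenosine deaminase on the cell.

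Libraries held between 11308285 and 12820895 counts in GLC and between 12775695 and 14620148 counts in WT. Xist had 11 counts in GLC replicate 9 and between 2992 and 5943 counts in every other library. Genes of chromosome Y summed to 737 counts in GLC replicate 9 and to between 152 and 364 counts in every other library. That library thus stands apart in both sex-linked measures, with no WT library like it. The part of sex in the fold changes was not tested. Fold changes without GLC replicate 9, and without it and the pooled library, are given for all 7 genes. All 9 listed CD4 T cell markers were measured, with a summed level between 3520 and 3992 CPM (the count scaled to library size) in GLC and between 3620 and 4036 CPM in WT. The 2 CD8 markers summed to at most 14.4 CPM in GLC and 13.5 CPM in WT. Of 13 B cell markers none was at 0, and their sum ran from 216 to 1093 CPM in GLC and from 79.5 to 728 CPM in WT. Of 16 macrophage and myeloid markers, 2 (Csf3r and S100a8) were at 0 in all libraries, and their sum ran from 5.31 to 10.1 CPM in GLC and from 4.23 to 7.35 CPM in WT. Lyz2, the gene whose promoter drives the deletion, had 0 counts over the GLC libraries, and 12 counts over the WT libraries. Of these 12, WT replicate 1 alone held 9, and no other WT library held more than 1. By counting error alone, a count of 0 over the GLC libraries has an approximate 95% upper limit of 3 counts, or 0.0407 CPM. Pggt1b itself was read in these cells, at 49.1 ± 6.70 CPM in GLC and 39.3 ± 4.52 CPM in WT (log2 fold change 0.32, SE 0.10, adjusted p = 0.9997 in edgeR). In bulk RNA, fewer cells of a type and less RNA per cell cannot be told apart.

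The promoters of the surface enzyme genes are shown because Entpd1 and Nt5e act one after the other on the same nucleotide but differ in level, as given further on. A link between promoter sequence and level was not tested. RefSeq windows on GRCm38, from 250 bases before to 50 bases after a start, matched 6 of the 7 genes in 15 windows, and all but Adora2a are among them. Capitals mark a core of the cyclic AMP response element, TGACG or its reverse complement CGTCA, and the GC box GGGCGG or its reverse complement CCGCCC, where matches of the GC box can overlap each other.
Nt5e, chr9:88327359-88327658, plus strand: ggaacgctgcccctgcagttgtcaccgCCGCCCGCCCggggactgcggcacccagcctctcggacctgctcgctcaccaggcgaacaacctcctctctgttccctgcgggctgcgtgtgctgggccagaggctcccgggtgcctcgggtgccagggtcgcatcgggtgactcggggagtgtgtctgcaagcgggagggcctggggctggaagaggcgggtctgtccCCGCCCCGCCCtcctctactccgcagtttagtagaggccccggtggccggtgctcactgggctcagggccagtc
Entpd1 upstream start, chr19:40612116-40612415, plus strand: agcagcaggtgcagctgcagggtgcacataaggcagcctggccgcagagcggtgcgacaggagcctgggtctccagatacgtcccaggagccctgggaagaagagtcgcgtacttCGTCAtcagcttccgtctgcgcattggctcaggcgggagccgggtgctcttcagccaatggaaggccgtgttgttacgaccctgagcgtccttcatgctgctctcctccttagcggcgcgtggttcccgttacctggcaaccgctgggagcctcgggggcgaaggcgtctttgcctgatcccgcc
Entpd1 downstream start, chr19:40659520-40659819, plus strand: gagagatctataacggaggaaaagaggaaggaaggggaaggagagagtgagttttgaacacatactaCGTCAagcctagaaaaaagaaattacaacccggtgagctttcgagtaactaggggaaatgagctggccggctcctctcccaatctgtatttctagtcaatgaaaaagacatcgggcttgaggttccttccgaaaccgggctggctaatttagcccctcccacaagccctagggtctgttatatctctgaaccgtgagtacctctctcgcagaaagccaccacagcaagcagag
The Nt5e window held 4 GC box matches and no response element core. Each Entpd1 window held 1 response element core, at -135 in the upstream window and at -183 in the downstream window relative to its start, and no GC box. Of 32851 promoter windows counted, 20.8% held the response element core and 35.7% held the GC box. These were windows on the numbered and sex chromosomes, with 1 numbered chromosome left out. A match is a run of letters and not a shown binding site.

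Per kilobase of exon, Nt5e had the highest mean level of the 7 genes and Entpd1 the lowest. Length was that of all annotated exons of a gene merged, from 2.002 kb for Ada to 8.602 kb for Nt5e. The order between genes depends in part on that choice. In CPM without length scaling, Nt5e still had the highest mean and Entpd1 the lowest in both groups. Adora2a, at 46.7 CPM in GLC and 36.9 CPM in WT, then lay below Adk and Dpp4. Nt5e averaged 21.5 ± 4.49 CPM per kb in GLC and 14.6 ± 4.58 CPM per kb in WT (SD, n = 6 and 5). Adora2a followed at 15.2 ± 4.23 CPM per kb in GLC and 12.04 ± 2.65 CPM per kb in WT, Adk at 12.7 ± 2.02 in GLC and 13.3 ± 2.23 in WT, and Dpp4 at 12.1 ± 2.51 in GLC and 9.97 ± 3.15 in WT. These 4 were not separated within libraries: Nt5e lay above Adora2a in 8 of 11, Adora2a above Adk in 5 of 11, and Adk above Dpp4 in 8 of 11. Slc29a1 was at 7.65 ± 0.816 CPM per kb in GLC and 8.24 ± 0.781 in WT, below Dpp4 in 10 of 11 libraries. Ada was at 4.22 ± 0.755 CPM per kb in GLC and 4.37 ± 0.759 in WT, and Entpd1 at 0.952 ± 0.338 CPM per kb in GLC and 0.811 ± 0.180 in WT, and both gaps, Slc29a1 over Ada and Ada over Entpd1, held in 11 of 11 libraries.

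**Figure D1:**
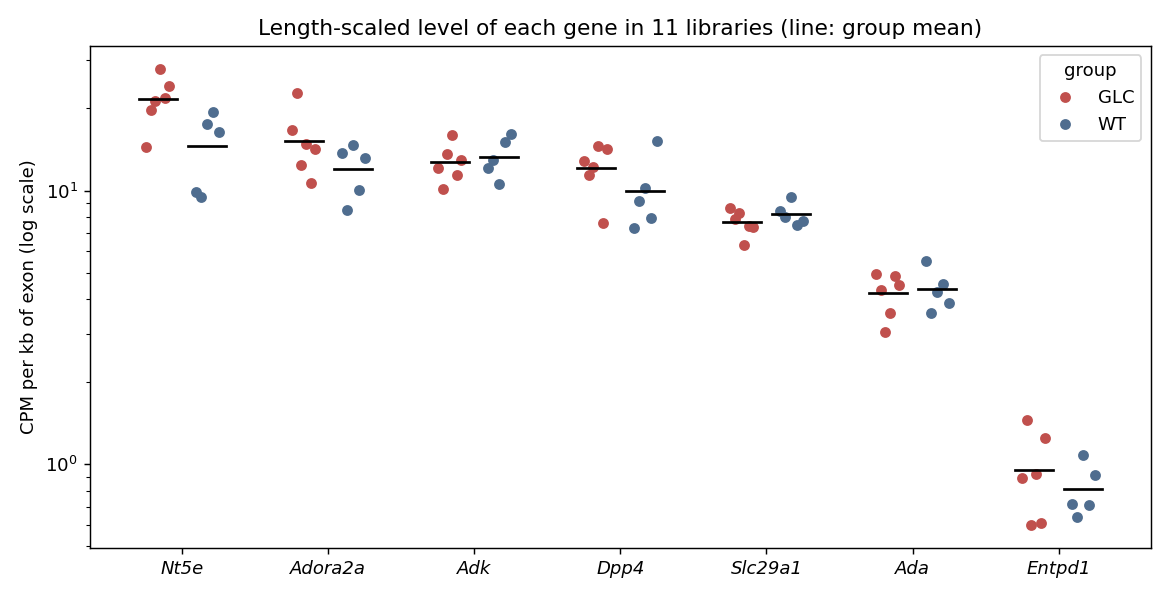
Level of each gene in CPM per kilobase of exon on a log axis, GLC left of WT, with 1 point for each library and a line at the group mean. Entpd1 is lowest in all 11 libraries, while Nt5e, Adora2a, Adk and Dpp4 overlap.

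Transcripts of Nt5e exceeded those of Entpd1 per kilobase in every library. Other ectoenzymes that act on these nucleotides are not part of this ratio. The ratio of Nt5e to Entpd1 per kilobase had a median of 24.8 in GLC (range 13.7 to 35.9) and of 16.3 in WT (range 13.8 to 27.4). Among the clearing enzymes, Adk exceeded Ada in each library, with a median ratio per kilobase of 2.65 in GLC (range 2.33 to 4.48) and 3.28 in WT (range 2.17 to 4.15). Without length scaling the gap was wider: Adk averaged 108 CPM in GLC and 114 CPM in WT, and Ada 8.44 CPM in GLC and 8.75 CPM in WT. The group ranges of both ratios overlapped.

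None of the 7 genes passed the threshold between GLC and WT. In edgeR's quasi-likelihood test with Benjamini-Hochberg adjustment, 0 of 7 passed at an adjusted p of 0.05, and so did 0 of all 12404 genes tested (0%); each of the 7 had an adjusted p of 0.9997. At an unadjusted p under 0.05 there were 563 genes (4.54%), 341 higher (2.75%) and 222 lower (1.79%) in GLC. Of the 7, 1 was higher and 0 lower. That count moved between refits: 3 of the 7 had such a p without GLC replicate 11, beside 789 of 12347 genes. None of the 7 did with the share of counts in Gm42418, a non-coding transcript, as a covariate, beside 447 of 12404 genes. DESeq2 called 2 genes and limma-voom 0, none of the 7 in either. The groups overlapped for each of the 7 genes, as for all but 0.331% of genes tested. The log2 fold change was above 0 for 4 of the 7, with a median of 0.23, against 49.9% of genes tested and a median of -0.00016 over all of them. Without GLC replicate 9 the log2 fold change was 0.34 for Entpd1, 0.57 for Nt5e, 0.40 for Adora2a, -0.13 for Slc29a1, 0.03 for Ada, 0.29 for Dpp4 and -0.09 for Adk. Without GLC replicates 9 and 78 it was 0.18 for Entpd1, 0.60 for Nt5e, 0.22 for Adora2a, -0.15 for Slc29a1, 0.04 for Ada, 0.30 for Dpp4 and -0.03 for Adk. Ada alone changed sign under these omissions.

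**Figure D2:**
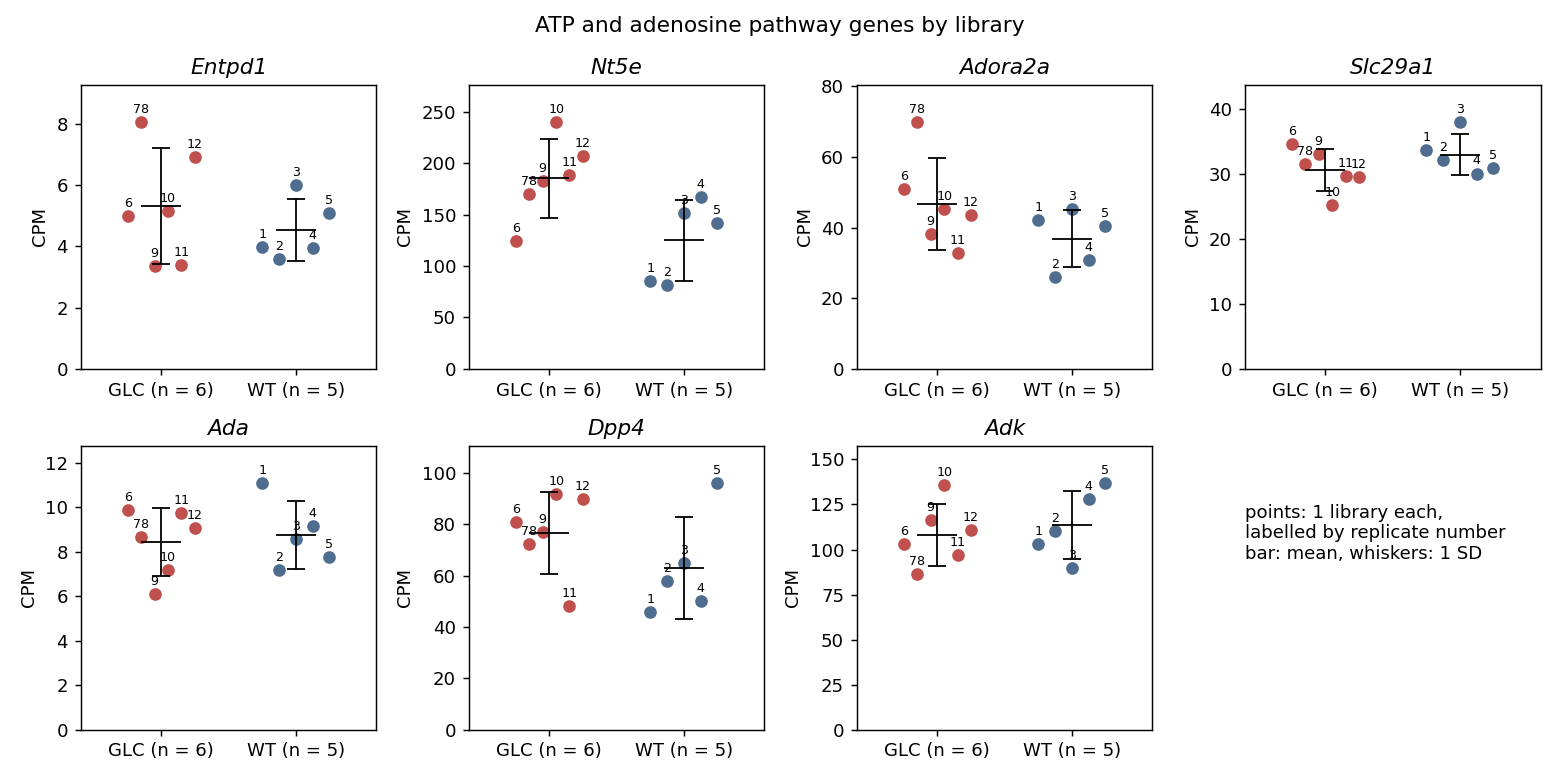
CPM of each gene in every library, GLC left of WT, with points labelled by replicate number, a bar at the mean and whiskers of 1 SD. GLC and WT overlap in every panel. For Nt5e, WT replicates 1 and 2 lie below all other libraries.

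Nt5e, on chromosome 9 (88327197 to 88372092, plus strand), encodes CD73, which turns AMP into adenosine. Its level in GLC libraries ran from 123.9 through a median of 185 to 240.0 CPM, against 85.1, 81.4, 151, 167 and 141 CPM in WT replicates 1 to 5. WT replicates 1 and 2 were the lowest of all libraries, GLC replicate 6 lay below WT replicates 3 to 5, and the other 5 GLC libraries lay above all WT libraries. Nt5e had a log2 fold change of 0.57 (SE 0.20, 95% interval 0.15 to 0.99), and 5 of 6 GLC values exceeded the mean of WT. That fold change was 0.45 (SE 0.19) without WT replicate 1, 0.44 (SE 0.19) without WT replicate 2 and 0.69 (SE 0.20) without WT replicate 4. With the Gm42418 share, highest in WT replicate 1 at 10.0%, as a covariate it was 0.44 (SE 0.23). The part of that share in the Nt5e values was not tested. Its unadjusted p of 0.0118 was the 97th smallest of 12404 genes, and the adjusted p in edgeR was 0.9997. Between 1087 and 2848 counts in a library stand behind these values, a counting error of at most 3.03%.

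Entpd1, on chromosome 19 (40612366 to 40741602, plus strand), encodes CD39, which takes ATP and ADP to AMP. It ran from 3.35 through a median of 5.06 to 8.06 CPM in GLC, against 3.99, 3.59, 6.01, 3.94 and 5.10 CPM in WT replicates 1 to 5. The highest library was GLC replicate 78 and the lowest GLC replicate 9, so the WT range lay inside the GLC range. Entpd1 had a log2 fold change of 0.23 (SE 0.25, 95% interval -0.29 to 0.76), which ran from 0.08 without GLC replicate 78 to 0.36 without WT replicate 3 when 1 library was left out, and was 0.14 without GLC replicate 12. Only 39 to 105 counts were read per library, which gives a counting error of up to 16.0%, and the level varied between libraries by 35.6% of the mean in GLC and 22.2% in WT.

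Adora2a, on chromosome 10 (75316877 to 75334784, plus strand), encodes an adenosine receptor that couples to stimulatory G protein. It ran from 32.7 through a median of 44.3 to 69.9 CPM in GLC, against 42.1, 26.0, 45.1, 30.8 and 40.3 CPM in WT replicates 1 to 5. GLC replicate 78 stood highest and WT replicate 2 lowest, with the other libraries mixed between the groups. Adora2a had a log2 fold change of 0.34 (SE 0.18, 95% interval -0.05 to 0.73; unadjusted p = 0.0798, adjusted p = 0.9997 in edgeR), which ran from 0.19 (SE 0.15) without GLC replicate 78 to 0.43 (SE 0.17) without GLC replicate 11. The other adenosine receptor genes had few counts. Adora1 had 0 counts in all 11 libraries, with an approximate 95% upper limit of 0.0211 CPM by counting error alone. Adora2b had 9 counts over the GLC and 2 over the WT libraries, and Adora3 had 1 count over the GLC and 0 over the WT libraries.

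The transporter and the intracellular clearing enzymes had the smallest fold changes of the 7. Slc29a1, the equilibrative nucleoside transporter ENT1, on chromosome 17 (45585200 to 45599606, minus strand), ran from 25.3 through 30.7 to 34.6 CPM in GLC, against 33.7, 32.1, 38.1, 30.1 and 31.0 CPM in WT replicates 1 to 5. WT replicate 3 was highest and GLC replicate 10 lowest, with the rest mixed. Slc29a1 had a log2 fold change of -0.11 (SE 0.09, 95% interval -0.30 to 0.09), and it had the smallest spread of the 7, at 10.7% of the mean in GLC and 9.48% in WT. That fold change was -0.05 without GLC replicate 10 and -0.05 without WT replicate 3, and -0.18 (SE 0.09) with the mean of the regulatory T cell markers as a covariate. Ada, which deaminates adenosine to inosine, on chromosome 2 (163726584 to 163750239, minus strand), ran from 6.09 through 8.88 to 9.88 CPM in GLC, against 11.1, 7.17, 8.56, 9.15 and 7.76 CPM in WT replicates 1 to 5. WT replicate 1 was highest and GLC replicate 9 lowest. The fold change of Ada on the log2 scale was -0.05 (SE 0.16, 95% interval -0.38 to 0.28), 0.03 without GLC replicate 9, 0.05 without WT replicate 1 and -0.11 without WT replicate 2, so its sign turned on single libraries. Adk, which phosphorylates adenosine back to AMP, on chromosome 14 (21052574 to 21448569, plus strand), ran from 86.1 through 107 to 136.0 CPM in GLC, against 103, 110.4, 89.9, 128 and 137 CPM in WT replicates 1 to 5. WT replicate 5 and GLC replicate 10 were highest and GLC replicate 78 lowest. Adk had a log2 fold change of -0.07 (SE 0.12, 95% interval -0.33 to 0.19), and leaving out 1 library gave 0.01 (WT replicate 5), -0.01 (GLC replicate 78), -0.14 (GLC replicate 10) or -0.14 (WT replicate 3). These intervals leave room for a fold between 0.813 and 1.06 for Slc29a1, 0.767 and 1.22 for Ada, and 0.795 and 1.14 for Adk.

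Dpp4, on chromosome 2 (62330073 to 62412231, minus strand), varied widely within both groups. It ran from 48.1 through 79.0 to 92.0 CPM in GLC, against 46.0, 57.9, 64.8, 50.0 and 96.2 CPM in WT replicates 1 to 5. WT replicate 5 was the highest library of all and GLC replicate 11 lay among the low WT libraries. The log2 fold change of 0.28 (SE 0.19, 95% interval -0.12 to 0.68) was 0.49 (SE 0.16) without WT replicate 5 and 0.18 (SE 0.19) without WT replicate 1. It was 0.04 (SE 0.18) with the share of counts in Gm42418, a non-coding transcript, as a covariate. That share was between 5.99% and 7.14% in GLC. In WT it was 10.0% in replicate 1, the library lowest in Dpp4, and between 6.65% and 7.82% in the others. The part of the Gm42418 share in the result was not tested. The antisense genes Gm13561 and Gm17080 overlap exons of Dpp4 and Slc29a1 by 232 and 275 bases; they held 0 counts over the GLC libraries and 1 and 2 counts over the WT libraries.

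Adora2a followed the regulatory T cell marker Foxp3 across libraries, and the relation did not pass for the other 6 genes over all 11 libraries, though for Entpd1 it passed under some omissions given further on. Foxp3, the transcription factor of regulatory T cells, averaged 89.1 ± 24.2 CPM in GLC and 57.3 ± 19.0 CPM in WT (SD, n = 6 and 5), and a list of 19 measured regulatory T cell markers that holds none of the 7 genes summed to between 1038 and 1924 CPM in GLC and between 889 and 1440.5 CPM in WT. Of these 19, all had a log2 fold change above 0, 4 with an unadjusted p under 0.05 and 0 past the threshold in edgeR. All 10 naive T cell markers had a log2 fold change below 0, with a median of -0.17, 2 with an unadjusted p under 0.05 and 0 past the threshold, and summed to between 7173 and 9042 CPM in GLC and between 8316 and 9614 CPM in WT. Of 8 natural killer cell markers 4 were tested, 3 above and 1 below 0, 2 of them higher at an unadjusted p under 0.05 and 0 past the threshold, and the 8 summed to between 5.23 and 14.5 CPM in GLC and between 6.38 and 9.05 CPM in WT. Over all genes tested, 49.9% had a log2 fold change above 0. At an unadjusted p under 0.05 in edgeR, 2.75% were higher and 1.79% lower in GLC. The part of naive or natural killer cells in the values of the 7 genes was not tested. Across the 11 libraries Adora2a followed Foxp3 in log2 CPM (Pearson r = 0.868, permutation p = 0.00058, adjusted p = 0.00812 over 14 relations; Spearman rho = 0.818, permutation p = 0.00354, adjusted p = 0.0496). The r was 0.665 without GLC replicate 78 and WT replicate 2, the libraries farthest from the median of Adora2a, 0.847 with group means removed and 0.931 within the 6 GLC libraries. The adjusted p of r was 0.0651 without GLC replicate 78 and 0.0556 without WT replicate 2 (permutation tests), so the call rests on each of these libraries. With the mean of the regulatory T cell list as a covariate the log2 fold change of Adora2a was 0.004 (SE 0.08), against 0.34 (SE 0.18) without it.

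For Nt5e, the r with Foxp3 was 0.575 (permutation p = 0.0669, adjusted p = 0.189; rho = 0.327, permutation p = 0.325, adjusted p = 0.575), -0.0238 without WT replicates 1 and 2, 0.282 with group means removed and -0.310 within the 6 GLC libraries. When 1 library was left out it stayed between 0.361 and 0.667. The 5 WT libraries are too few for a correlation of their own. With the same covariate its log2 fold change was 0.62 (SE 0.22), close to the 0.57 (SE 0.20) without it. Entpd1 had an r with Foxp3 of 0.697 (permutation p = 0.0185, adjusted p = 0.0864; rho = 0.527, permutation p = 0.1, adjusted p = 0.468) and of 0.782 without GLC replicates 78 and 9; it passed without GLC replicate 9 (adjusted p = 0.0122, permutation test) and with group means removed (r = 0.743, adjusted p = 0.041, permutation test). Its log2 fold change was -0.07 (SE 0.23) with the covariate. The remaining 4 genes had an r with Foxp3 between -0.332 for Adk and 0.571 for Dpp4, none of which passed. Whether these relations with Foxp3 differ from each other was not tested.

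**Figure D3:**
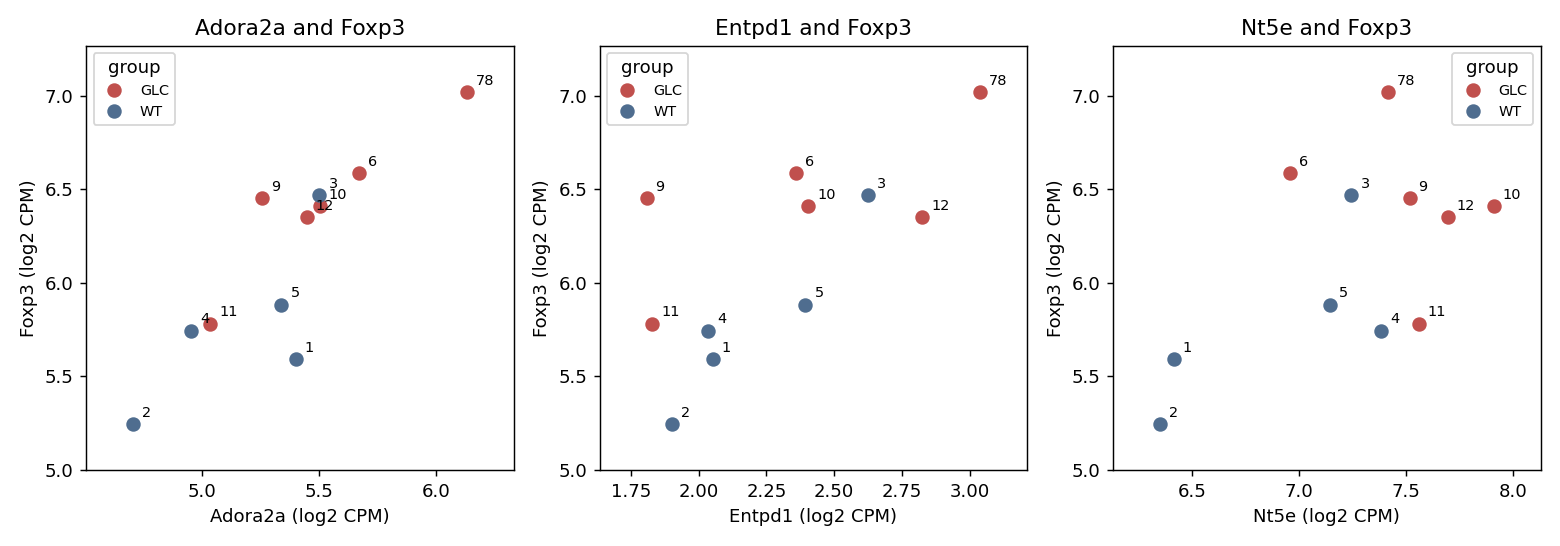
Log2 CPM of Foxp3 against that of Adora2a, Entpd1 and Nt5e, with 1 point for each library labelled by replicate number. Libraries high in Adora2a are high in Foxp3 (r = 0.868), and the r of Nt5e is 0.575 with and -0.0238 without the low WT replicates 1 and 2.

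B cell markers moved with Adora2a as well. Its r with the mean log2 CPM of the 6 tested B cell markers was 0.802 (permutation p = 0.00448, adjusted p = 0.0314; rho = 0.618, permutation p = 0.0482, adjusted p = 0.337) and 0.651 without GLC replicate 78 and WT replicate 2. The call was lost without GLC replicate 78, WT replicate 2 or WT replicate 4 (adjusted p of r of 0.136, 0.16 and 0.0559, permutation tests). The marker lists themselves went together: the r of the regulatory T cell and B cell list means was 0.821 (permutation p = 0.00292; rho = 0.645, permutation p = 0.038; 0.682 without GLC replicate 78 and WT replicate 2). When that B cell mean was added to the fit, the log2 fold change was 0.14 (SE 0.13) for Adora2a, 0.06 (SE 0.24) for Entpd1, 0.19 (SE 0.18) for Dpp4 and 0.62 (SE 0.21) for Nt5e. The part of either cell type in these differences was not tested beyond these values.

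**Figure D4:**
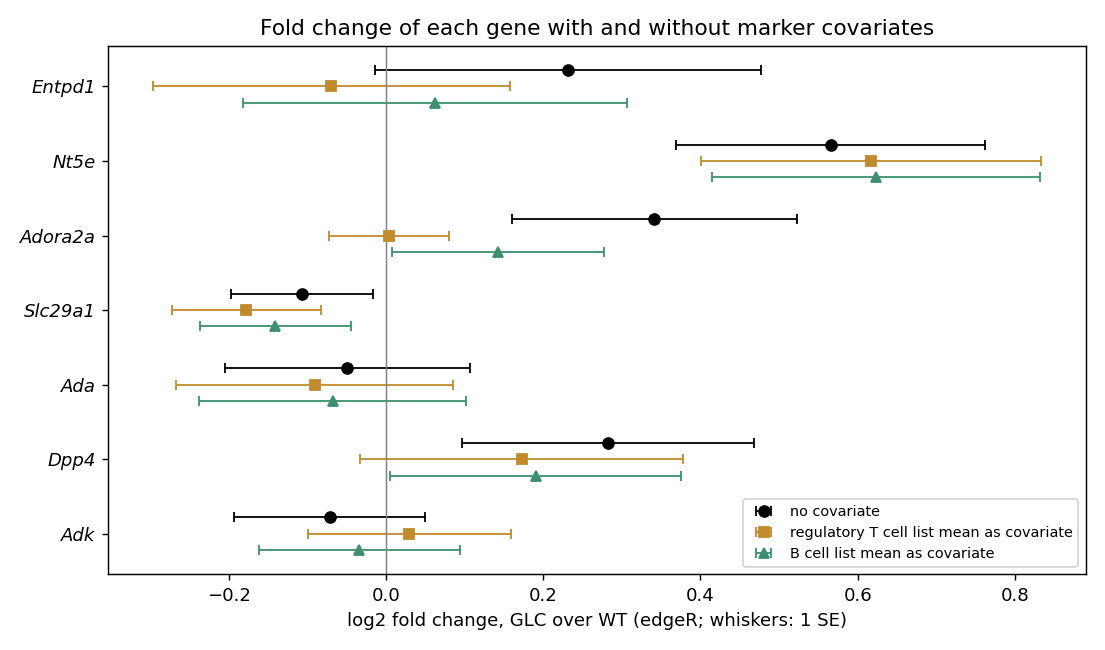
Log2 fold change of GLC over WT for each gene, with whiskers of 1 SE, without a covariate and after adding the regulatory T cell or the B cell marker mean to the fit. The value of Adora2a is 0.34 without and 0.004 with the regulatory T cell covariate, and that of Nt5e is 0.57 and 0.62.

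Among the 21 pairs of the 7 genes none passed. The closest pair was Entpd1 and Adora2a, with r = 0.797 (permutation p = 0.00257, adjusted p = 0.054; rho = 0.773, permutation p = 0.00737, adjusted p = 0.155) and r = 0.722 without GLC replicates 78 and 9. Leaving out GLC replicate 6 brought its adjusted p to 0.0449, and leaving out GLC replicate 12 brought it to 0.0435 (permutation tests). The paired surface enzymes Entpd1 and Nt5e had r = 0.316 (permutation p = 0.345, adjusted p = 0.627; rho = 0.209, permutation p = 0.54, adjusted p = 0.781), and 0.44 without GLC replicates 78 and 9. Nt5e and the transporter Slc29a1 ran against each other at r = -0.549 (permutation p = 0.084, adjusted p = 0.489; rho = -0.709, permutation p = 0.0187, adjusted p = 0.196), with r = -0.754 without WT replicates 1 and 2, -0.433 with group means removed and -0.878 within the GLC libraries, and between -0.685 and -0.364 when 1 library was left out.

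By pattern over the 11 libraries, the genes nearest to each were taken from 10617 tested genes as the highest r, which describes the choice and carries no test. Nearest to Adora2a were Lmnb1, a nuclear lamin (r = 0.970), Ttc39c (0.969) and Ptpn5, a tyrosine phosphatase (0.964). Nearest to Nt5e were Asxl1, a chromatin regulator (0.934), Inppl1, a phosphoinositide phosphatase (0.884), and Cmtr1, an mRNA cap methyltransferase (0.877). Entpd1 lay nearest to Lxn (0.933), Cyp4f16 (0.924) and Adam9 (0.897), and Dpp4 to Tmem173, the DNA-sensing adaptor STING (0.977), Arl14ep (0.959) and Wnt5b (0.918). Nearest to Slc29a1 were Nfkb2, an NF-kB subunit (0.924), Plekha6 (0.909) and Sssca1 (0.901), and to Ada Sap30 (0.956), Bloc1s4 (0.936) and Smim27 (0.927). Adk lay nearest to Ndufb2 (0.949), Aqr (0.932) and Suclg1 (0.931), where Ndufb2 and Suclg1 are nuclear genes of mitochondrial proteins. No gene was named for more than 1 of the 7.

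The rest of the pathway lay near the background of all genes tested. Of 86 further listed genes 53 were tested, 24 with a log2 fold change above 0 and 29 below, with a median of -0.02. None passed in either direction (edgeR), and 2 (3.77%, against 4.54% of all genes tested) had an unadjusted p under 0.05. These were Entpd7, an intracellular nucleotide hydrolase, at 10.3 ± 2.06 CPM in GLC and 7.97 ± 1.71 CPM in WT (log2 fold change 0.37, SE 0.17), and Dck, the kinase that salvages deoxynucleosides, at 46.7 ± 5.23 CPM in GLC and 52.6 ± 2.12 CPM in WT (-0.17, SE 0.08). The next of the 19 tested intracellular enzymes was Ak3, an adenylate kinase, at 0.14 (SE 0.08).

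Upstream of CD39, the ATP release genes gave Panx1, the pannexin channel, at 39.5 ± 2.76 CPM in GLC and 41.7 ± 3.43 CPM in WT (log2 fold change -0.08, SE 0.07), Lrrc8a, a volume-regulated channel, at -0.12 (SE 0.09) and Calhm2 at 0.48 (SE 0.26). Among ATP and other nucleotide receptors, P2rx7 was at 13.7 ± 1.55 CPM in GLC and 11.5 ± 2.80 CPM in WT (0.26, SE 0.15). It is the channel through which extracellular ATP can kill T cells. P2rx4, also an ATP receptor, was at 0.07 (SE 0.11), and the nucleotide receptor P2ry14 at -0.05 (SE 0.25). The 4 tested ectoenzymes other than CD39 and CD73 were all below 0 with a median of -0.18, and included Enpp1, which splits ATP, at -0.10 (SE 0.12), Enpp2, autotaxin, at -0.26 (SE 0.25) and Art2b, a surface ADP-ribosyltransferase, at -0.90 (SE 0.83). The 3 other tested nucleoside transporters were above 0: Slc28a2, a concentrative carrier, was at 77.8 ± 26.7 CPM in GLC and 69.0 ± 14.6 CPM in WT (0.17, SE 0.22), Slc29a3 at 0.05 (SE 0.07) and Slc29a2 at 0.16 (SE 0.34). Downstream of the Adora2a receptor, 7 of 19 cyclic AMP pathway genes were above 0 and 12 below, with a median of -0.02, among them Gnas, the stimulatory G protein subunit, at 0.09 (SE 0.07), Adcy3, an adenylate cyclase, at 0.12 (SE 0.09), and Pde3b, a phosphodiesterase that breaks down cyclic AMP, at -0.18 (SE 0.10).

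**Figure D5:**
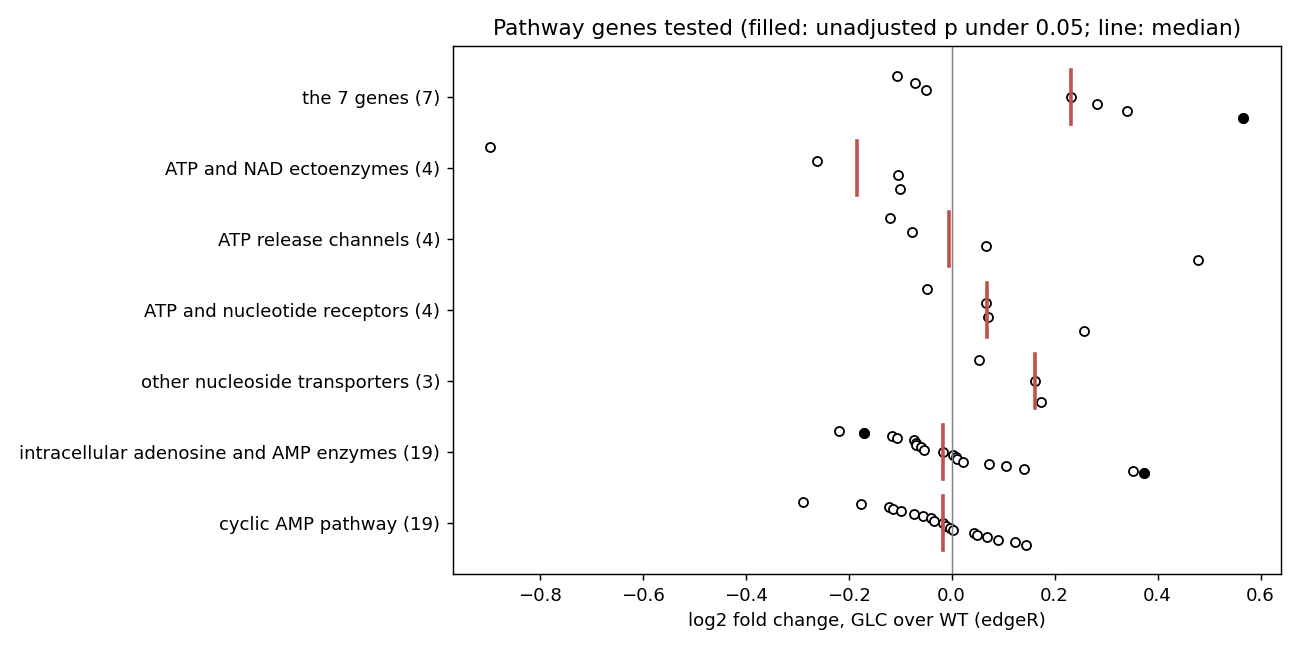
Log2 fold change of GLC over WT for the 7 genes and for the tested genes of 6 further pathway lists (number tested in parentheses), filled where the unadjusted p is under 0.05, with a line at each list median. Median values are 0.23 for the 7 genes and between -0.18 and 0.16 for the other lists.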

How the data were processed

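RNA sequencing of 11 libraries was deposited as whole-number read counts per Ensembl gene, which the authors did not normalize. The submitters' processing notes name STAR, featureCounts and the mm10 build, with no versions; annotation, strand setting and multiply mapped reads: not given in the sources used here. Symbols and positions came from GENCODE M21 (GRCm38, the assembly mm10 names), which matched 55230 of 55471 identifiers. Libraries were grouped by title, and 0 columns lacked a sample. Over 55 pairs of libraries the chi-square per degree of freedom was at least 9.48, so none was a copy.

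The model was edgeR 4.0.16 under R 4.3.3: filterByExpr by group, TMM scaling, and glmQLFit with glmQLFTest of GLC over WT, two-sided, with Benjamini-Hochberg adjustment over 12404 genes. SEs came from the F statistic, and log2 CPM used a prior count of 2. Relations used 100000 two-sided permutations and were adjusted over 21 pairs and over 14 relations with Foxp3 and the B cell list. The fit and the permutation test were tested on simulated data. Alternatives included DESeq2 1.42.0, limma-voom (limma 3.58.1), other scalings and filters, marker covariates and each library left out. The 7 genes and all lists were chosen with earlier results of these data known. Beside the 7, genes were named as the 3 of smallest p in each pathway list and the 3 nearest by pattern; not all are printed.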

Additional observations from a re-analysis of the deposited data

Results flagged for a closer look

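Among 52 sets of libraries (each group for the 7 genes, Foxp3 and the named pathway genes), 1 held a library far from the others by Dixon's gap criterion, which chance meets in about 1 of 20 sets. Ak3, an adenylate kinase, was at 22.04 CPM in GLC replicate 11, against 24.3 to 25.6 CPM in the other GLC libraries. The gap was 0.629 of the GLC range, just past the critical value of 0.625.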

How the results depend on the processing

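Under 22 alternatives 0 of the 7 genes and 0 of the other pathway genes passed. Over all genes 1 passed with no filter on low counts (edgeR) and 2 with DESeq2, and 0 under the others, an adjusted p of 0.1 and each library left out included. Nt5e stayed between 0.44 and 0.69 on the log2 scale in each of 21 refits. Its smallest adjusted p was 0.701 (edgeR), with no filter on low counts. Its smallest value, 0.436 (SE 0.23), came with the Gm42418 share as a covariate. In that refit its unadjusted p was 0.0819 (edgeR), and 0 of the 7 genes had an unadjusted p under 0.05. Values changed sign for Ada (0.16 with the Gm42418 share, 0.0381 without GLC replicates 9 and 78, and from -0.113 to 0.0482 with 1 library left out), Adk (0.0300 with the regulatory T cell covariate, and from -0.143 to 0.00972 with 1 library left out) and Entpd1 (-0.0692 with the regulatory T cell covariate). The causes were not tested. Of 35 relations 2 passed, 3 did with group means removed, 0 did within the GLC libraries (6 libraries, exact permutation), and between 0 and 3 did with 1 library left out (0 without GLC replicate 78 or WT replicate 2). The r of Nt5e with Foxp3 was -0.310 within GLC, and 0.282 with group means removed. No paired analysis was possible because the groups share no replicate numbers. Depth limits Entpd1 and Ada most, with as few as 39 and 71 counts in a library.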

Other observations

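Several pathway genes fell under the filter on low counts and were not tested. Cd38, an ectoenzyme that consumes NAD, had 52 counts over the 6 GLC libraries and 23 over the 5 WT libraries. The ATP receptor genes P2rx1 and P2ry2 had 26 and 17 counts over the GLC libraries and 14 and 12 over the WT libraries. The nucleotide receptor gene P2ry12 had 7 over the GLC and 0 over the WT libraries. Gja1, a gap junction and hemichannel gene, had 9 counts over the GLC and 27 over the WT libraries. Slc28a1, a concentrative nucleoside transporter, had 31 counts over the GLC and 35 over the WT libraries. These genes were chosen after their values were seen.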
